A study of Mus musculus with 10 samples.

Results

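The Hes, Hey and Id genes were followed in supporting cells of the mouse utricle, a balance organ of the inner ear. The 10 members were Hes1, Hes5, Hes6, Hey1, Hey2, Heyl, Id1, Id2, Id3 and Id4, matched by GRCm38 symbol among the 48709 genes of the deposited tables, of which 21695 were protein-coding. All 10 were found, all 10 had estimated counts in every table except Hes5, and all 10 entered each comparison except Hes5 in one. Hes and Hey proteins are basic helix-loop-helix repressors. Most of them are switched on by Notch: a ligand on one cell binds the receptor on its neighbour, which is then cleaved, the freed intracellular part joins the DNA-binding protein Rbpj, and the resulting Hes or Hey protein holds down proneural genes such as Atoh1, which makes a hair cell. Id proteins lack the basic region that touches DNA. They are classic targets of bone morphogenetic protein (BMP) signalling through Smad proteins and act by capturing the E proteins that proneural factors need as partners. In the inner ear the Notch effectors are known for keeping supporting cells from becoming hair cells.

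Utricles of Lfng-EGFP mice, taken at postnatal day 21, were cultured for 5 days with 10 µM TRULI, an inhibitor of the Lats kinases that restrain Yap, or with 0.1% DMSO alone, the vehicle. Other cultures were kept for 5 further days without the compound, called withdrawal here. The EGFP reporter driven by Lfng served to sort the supporting cells, so every library came from Lfng-EGFP animals and every culture had been given DMSO. The sample labels gave 3 DMSO_d5, 3 TRULI_d5, 2 DMSO_d10 and 2 TRULI_d10 libraries. The names of the deposited tables gave the same group sizes but another condition for 4 of the 10 libraries. The 3 DMSO_d5 libraries (5-day controls), 1 TRULI_d5 library and the 2 TRULI_d10 libraries (TRULI withdrawal) had the same condition in both. The libraries labelled DMSO_d10 replicates 1 and 2 were in tables named TRULI_d5 and are called the TRULI-named pair. The libraries labelled TRULI_d5 replicates 1 and 2 were in tables named DMSO_d10 and are called the DMSO-named pair. Every comparison that touched these 4 libraries was therefore made both ways.

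The libraries held 2463872 to 6255149 estimated counts. Ccn2, a direct Yap target, stood at 10.5 to 18.1 CPM (counts per 1000000 protein-coding counts, scaled by TMM) in the 5-day controls, at 827 CPM in the undisputed TRULI library and at 570 and 578 CPM in the TRULI-named pair, against 2.36 and 7.69 CPM in the DMSO-named pair and 18.3 and 4.35 CPM in TRULI withdrawal. Mki67, a marker of dividing cells, lay at 31.1 CPM in the undisputed TRULI library, at 148 and 67.6 CPM in the TRULI-named pair and at no more than 1.94 CPM elsewhere. In both genes the TRULI-named pair lay with the undisputed TRULI library, and the DMSO-named pair lay with the controls and TRULI withdrawal. The mitochondrial ribosomal RNA mt-Rnr2 took 13.0% to 26.4% of counts in the 6 libraries named for 5 days and 1.45% to 2.53% in the 4 named for withdrawal. Lfng, the gene behind the sorting reporter, ran from 348 to 653 CPM in the former and from 25.2 to 120 CPM in the latter. All or all but 1 of the 16 supporting-cell markers had counts in every library, with summed levels of 11579 to 22905 CPM. The 16 hair-cell markers summed to 412 to 1679 CPM. Of the 10 macrophage and 8 endothelial and mural markers, only Cd68 exceeded 4 CPM anywhere. The 8 skeletal-muscle markers summed to at most 3.24 CPM in the 6 libraries named for 5 days and to 18.7 to 106 CPM in the 4 named for withdrawal, nearly all of it Myod1, with Myog, Myf5 and Tnnt3 at 0 in all libraries. The 12 mesenchyme markers summed to 22.2 to 152 CPM and the 6 melanocyte markers to 10.4 to 56.4 CPM.

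**Figure D1:**
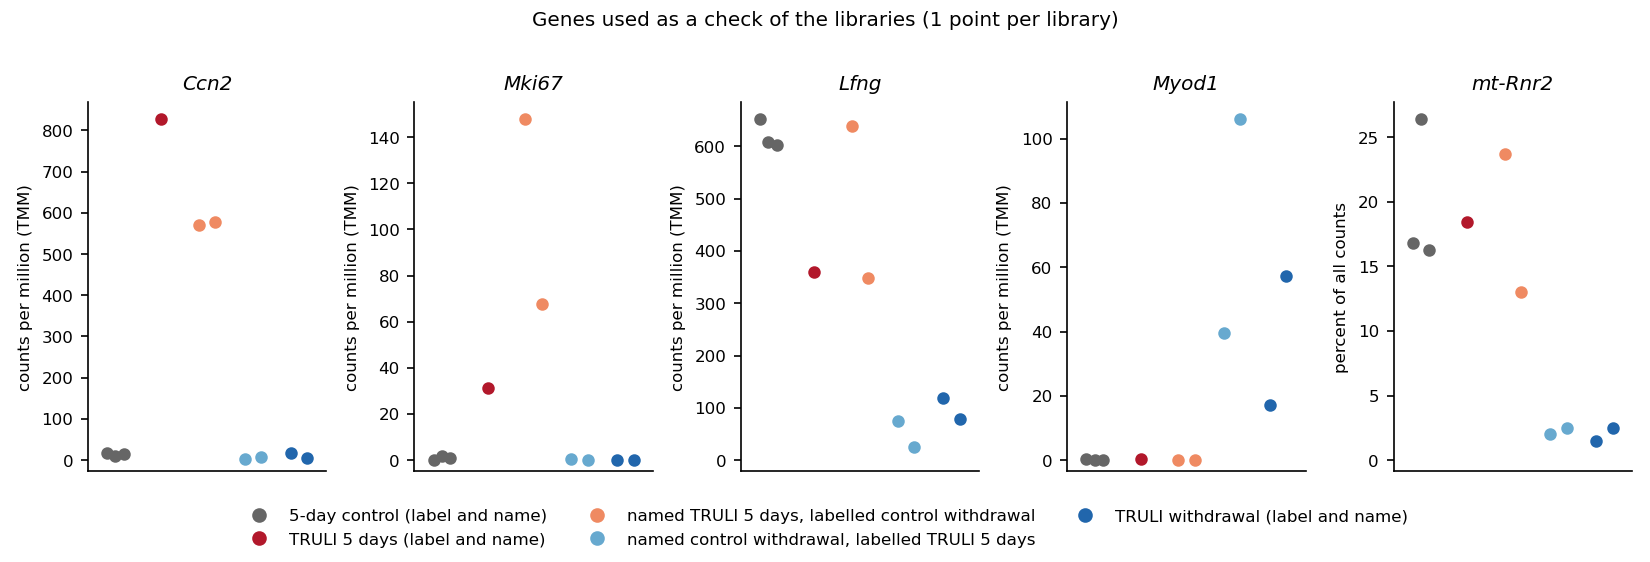
Level of 4 genes (y axis, TMM-scaled CPM) and share of mt-Rnr2 (y axis, percent of all counts) in each of the 10 libraries, coloured by the 5 sets that sample label and table name define; points carry no error bars. Ccn2 and Mki67 were high in the undisputed TRULI library and the TRULI-named pair, while Lfng and mt-Rnr2 were low and Myod1 was present in the DMSO-named pair and in TRULI withdrawal.

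The stretches before the transcription starts are shown for Hes5, Hey2 and Id4, because these were the members with a RefSeq promoter that held the core letters of the Rbpj site, TGGGAA or its reverse TTCCCA. RefSeq promoters of GRCm38.p6 matched 6 of the members, Hes5, Hes6, Hey2, Id2, Id3 and Id4, and none was matched for Hes1, Hey1, Heyl and Id1. Each sequence below runs 5′ to 3′ on the strand of the gene, from 250 bases before the RefSeq start to 10 bases after it, with the Rbpj letters in capitals. Hes5 lies at chr4:154960673-154960932 on the plus strand, Hey2 at chr10:30842774-30843033 on the minus strand and Id4 at chr13:48260866-48261125 on the plus strand.
Hes5: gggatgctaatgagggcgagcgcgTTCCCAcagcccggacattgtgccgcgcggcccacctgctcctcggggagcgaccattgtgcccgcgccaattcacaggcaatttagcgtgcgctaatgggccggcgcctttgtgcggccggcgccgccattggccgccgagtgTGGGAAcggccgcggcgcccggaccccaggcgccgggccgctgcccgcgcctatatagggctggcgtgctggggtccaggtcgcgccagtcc
Hey2: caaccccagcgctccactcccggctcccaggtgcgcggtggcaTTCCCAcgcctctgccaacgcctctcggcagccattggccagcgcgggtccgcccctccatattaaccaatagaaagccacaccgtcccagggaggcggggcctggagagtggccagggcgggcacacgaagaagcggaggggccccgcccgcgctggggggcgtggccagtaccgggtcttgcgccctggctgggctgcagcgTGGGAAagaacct
Id4: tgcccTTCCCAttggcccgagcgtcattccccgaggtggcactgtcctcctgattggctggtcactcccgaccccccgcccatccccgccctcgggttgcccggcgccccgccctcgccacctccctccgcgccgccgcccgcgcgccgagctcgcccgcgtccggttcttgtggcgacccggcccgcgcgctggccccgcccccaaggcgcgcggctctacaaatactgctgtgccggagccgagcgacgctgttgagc
Hes5 held the letters at -223 and -79 from the start, Hey2 at -204 and 0, and Id4 at -242. Over the window of 300 bases that ends 50 bases after the start, 3 of the 6 members held them, against 25.5% of 27025 promoters of the same length. The core letters of the Tead site, GGAATG or CATTCC, were in Hey2, Id3 and Id4 and in 14.6% of all promoters, and in Hey2 they overlapped the Rbpj match at -204. GGCGCC, a palindrome bound by Smad proteins, occurred 4 times in Hes5 and once each in Hey2, Id2 and Id4, and was in 12% of all promoters. CACGNG, read on both strands and bound by Hes and Hey proteins, was found in Hes6 alone and in 27.7% of all promoters. CANNTG, the E-box bound by proneural factors with E proteins, was in 4 of the 6 members and in 72.1% of all promoters. The member windows held 60% to 73.3% G and C, all above the median of 52.7% over all promoters.

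Compared per length, as FPKM, a level scaled for both transcript length and library size, Id1 was the member with the highest mean level over the 10 libraries, at 604 FPKM, followed by Hey1 at 253, Id2 at 222, Id4 at 138, Hey2 at 111, Hes1 at 76.3, Id3 at 48.7, Heyl at 30.7, Hes5 at 7.47 and Hes6 at 4.64 FPKM. The ranges over libraries overlapped between every pair of neighbours in this order. The lead of Id1 came from the 4 libraries named for withdrawal, at 837 to 1293 FPKM, whereas in the 5-day controls Id1 and Id2 both averaged 282 FPKM and Id1 was below Id2 in controls 1 and 2, at 105 against 263 and 280.4 against 350 FPKM. Id1 also covered the widest range in FPKM, from 105 to 1293 FPKM, whereas Id4, its relative, stayed between 108 and 199 FPKM. The 4 Id genes together made up 55.6% to 66.4% of the summed level of the 10 members in the 5-day controls and 69.7% to 83.0% in TRULI withdrawal. Within the Id family, Id1 accounted for 16.6% to 53.9% of the summed FPKM in the 5-day controls, for 73.8% and 74.1% in the DMSO-named pair and for 73.2% in both libraries of TRULI withdrawal. The 3 Hes genes took 8.23% to 13.2% of the summed level in the 5-day controls and 2.98% to 6.88% in the other 7 libraries, with Hes1 supplying 72.5% to 97.5% of it. Hey1 made up 54.2% to 57.7% of the Hey family in the 5-day controls and 76.0% to 84.6% in the 4 libraries named for withdrawal.

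**Figure D2:**
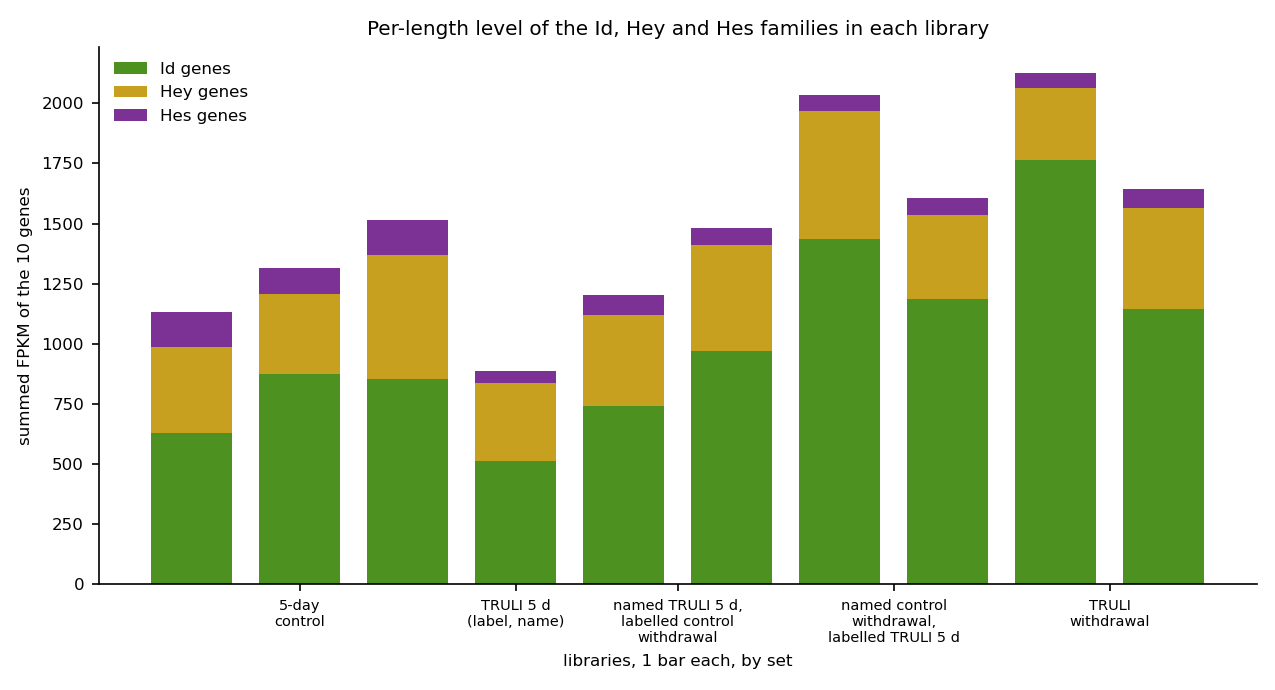
Summed FPKM (y axis, starting at 0) of the Id, Hey and Hes genes in each library, 1 bar per library with no error bar, grouped by the 5 sets. The Hes share was largest in the 3 controls at 8.23% to 13.2%, and the 4 libraries named for withdrawal had the 4 highest bars, at 1607 to 2128 FPKM.

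The members that stood apart between libraries are given next in full, on the scale of TMM-normalised CPM. Hes1, the main Notch effector of the Hes family, lay at 131, 111 and 140 CPM in the 5-day controls, at 36.6 in the undisputed TRULI library, at 66.7 and 72.7 in the TRULI-named pair, at 82.1 and 112 in the DMSO-named pair and at 82.5 and 111 in TRULI withdrawal. The controls were the highest group, although their lowest library was level with the higher library of the DMSO-named pair and of TRULI withdrawal. Hes5, another Notch effector, whose promoter above held a pair of Rbpj matches, lay at 30.6, 10.1 and 16.5 CPM in the 5-day controls, at 2.75 in the undisputed TRULI library and at 8.41 and 2.96 in the TRULI-named pair. It had 0 counts in both libraries of the DMSO-named pair, and 0 and 1 counts in TRULI withdrawal, where 3 counts would be 0.624 and 0.725 CPM. Thus the controls were higher than every other library, and the 4 libraries named for withdrawal lay at or under the level that 3 counts allow. Intervals and this limit cover counting error only, and fewer Hes5-positive cells cannot be told apart from less RNA per cell, here or for any other member.

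Hey2, a Hey repressor with Rbpj letters at its start, lay at 278, 244 and 392 CPM in the controls, at 295 in the undisputed TRULI library, at 322 and 324 in the TRULI-named pair, at 179 and 170 in the DMSO-named pair and at 107 and 156 in TRULI withdrawal. Id3 lay at 54.2, 61.6 and 45.8 CPM in the controls, at 60.4 in the undisputed TRULI library, at 91.4 and 69.5 in the TRULI-named pair, at 11.3 and 23.5 in the DMSO-named pair and at 19.5 and 23.0 in TRULI withdrawal. For both genes every library named for 5 days was above every library named for withdrawal. Id1 ran the other way, with 70.9, 191 and 302 CPM in the controls, 101 in the undisputed TRULI library, 184 and 436 in the TRULI-named pair, 813 and 783 in the DMSO-named pair and 987 and 709 in TRULI withdrawal. Within the 5-day controls alone Id1 varied over 4-fold.

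Hey1, the Hey gene with the highest mean FPKM over the 10 libraries, though below Hey2 in the undisputed TRULI library and the first of the TRULI-named pair, lay at 396, 366 and 576 CPM in the controls, at 264 in the undisputed TRULI library, at 287 and 522 in the TRULI-named pair, at 1069 and 726 in the DMSO-named pair and at 550 and 926 in TRULI withdrawal. Here the highest control overlapped the lowest library of TRULI withdrawal. Id2 lay at 256, 344 and 221 CPM in the controls, at 132 in the undisputed TRULI library, at 155 and 141 in the TRULI-named pair, at 272 and 230 in the DMSO-named pair and at 347 and 226 in TRULI withdrawal. The 3 libraries named for TRULI at 5 days were the lowest of all 10 for this gene. The ranges over the 10 libraries were 52.3 to 193 CPM for Heyl, 1.45 to 9.46 CPM for Hes6, which opposes Hes1, and 146 to 265 CPM for Id4. For Hes6 the 3 libraries named for TRULI at 5 days were the highest of all, for Heyl the TRULI-named pair was, and for Id4 the controls covered the whole range. The sources do not say whether counting used strand. Id4 shares its locus with the antisense gene A330033J07Rik, which had 1 to 13 counts per library, while Gm20421, opposite Hes5, had none.

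**Figure D3:**
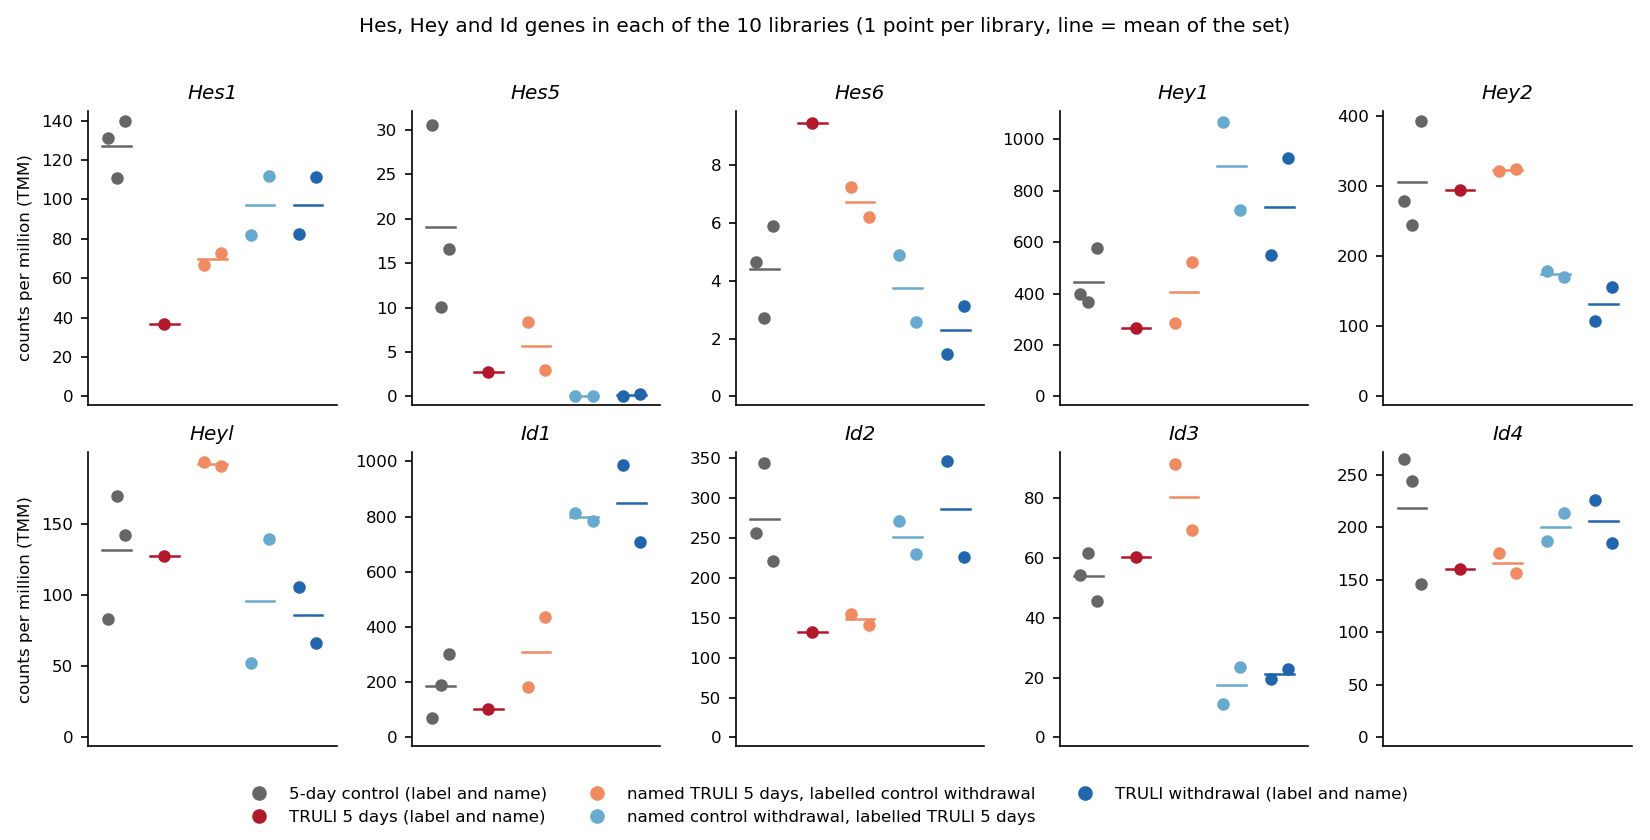
Level of each of the 10 members (y axis, TMM-scaled CPM, a scale of its own in each panel) in each library (1 point) with the mean of each of the 5 sets (line); no error bars are drawn. Hes5 had 0 or 1 counts, Hey2 and Id3 were lower and Id1 was higher in the 4 libraries named for withdrawal than in the 6 named for 5 days, and Hes1 was highest in the controls as a group.

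The first comparison asked whether 5 days of TRULI changed the members. By table name, Hes1 fell to 58.7 ± 19.3 CPM (SD, n = 3) from 127 ± 14.6 CPM (SD, n = 3) in the controls, a log2 fold change of -1.11 ± 0.27 (SE; adjusted p = 0.0469 by edgeR). It was the only member past the threshold of an adjusted p under 0.05 and a 2-fold change, so 1 of 10 was called, all of it lower, where 1.1% of the 10952 genes tested were called lower, 2.18% higher and 3.28% in either direction. Id2 changed by -0.93 ± 0.23 (SE; adjusted p = 0.0481 by edgeR), short of 2-fold, from 274 ± 63.3 to 143 ± 11.6 CPM (SD, n = 3 each). Hes5 averaged 4.71 ± 3.21 CPM against 19.1 ± 10.5 CPM (SD, n = 3 each), and its log2 fold change of -1.99 ± 0.57 missed the threshold (adjusted p = 0.0949 by edgeR). The TRULI libraries did not overlap the controls for Hes1, Hes5 and Id2, all lower, and Hes6, higher, which is 4 of 10 members against 21.6% of all genes tested. The other 7 members had log2 fold changes between -0.41 and 0.79, none past the test, and the median over the members was -0.13 against 0.010 over all genes. With the replicate number as a block, Hes5 also passed (adjusted p = 0.0395 by edgeR) and 696 genes were called in place of 359. The Hes1 call was lost without any one of control 1 (adjusted p = 0.0993 by edgeR), control 2 (0.125), control 3 (0.137), the undisputed TRULI library (0.117) or the first library of the TRULI-named pair (0.111), and it was kept without the second (0.0424). The only TRULI library that label and name agree on was part of this comparison and held the lowest Hes1 level of all 10 libraries. Set against the same 3 controls it gave a log2 fold change of -1.78, and a lone library shows no spread of its own. Marker sums also differed in this comparison. The 8 glial markers, led by Egr2 and S100b, summed to 1062 to 1400 CPM in the controls and to 267 to 531 CPM in the 3 libraries named for TRULI. The supporting-cell markers summed to 19366 to 22905 and 12779 to 17138 CPM, likewise without overlap. The hair-cell sums overlapped, at 412 to 701 and 516 to 1485 CPM, and 1 of the 15 hair-cell markers tested was called, Espn, higher. The median log2 fold change of these 15 markers was 1.39, against 0.010 over all genes. The part of these marker lists in the result was not tested.

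By sample label, the same question gave no call among the 10 members, where 0.00939% of 10646 genes, which is 1 gene, were called. At an unadjusted p under 0.05 edgeR had 1 member and 1478 genes, and DESeq2 called 0 members and 273 genes. Hes5 had the lowest p of the members, at 0, 0 and 9 counts in the labelled TRULI libraries against 66, 26 and 56 in the controls (log2 fold change -4.33 ± 1.23, adjusted p = 0.323 by edgeR). It was also the only member whose groups did not overlap, against 18.5% of all genes. Id1 averaged 566 ± 402 CPM in the labelled TRULI libraries and 188 ± 115 CPM in the controls (SD, n = 3 each; adjusted p = 0.371 by edgeR). Hes1 averaged 76.9 ± 37.9 CPM in the labelled TRULI libraries, and its log2 fold change of -0.71 did not pass the test (adjusted p = 0.447 by edgeR). This grouping put the DMSO-named pair and the undisputed TRULI library in one group, and without the latter 2121 genes and 4 members were called: Hes5 and Id3 lower and Hey1 and Id1 higher. The mt-Rnr2 share, Lfng and Myod1 moved with that pair, and their part in these differences was not tested.

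The second comparison asked what remained of the TRULI effect after 5 days of withdrawal, and here no library of the control arm had the same condition in label and name. By sample label, 0 of 10 members were called, where 2.29% of 11562 genes were. The 2 groups did not overlap for any of the 10 members, but neither did they for 58.2% of all genes with 2 libraries a group. At an unadjusted p under 0.05 edgeR had 6 members and 2901 genes, and DESeq2 called 1454 genes, 848 higher and 606 lower, with 3 members among them, Hey2 and Id3 lower and Id1 higher. Id3 averaged 21.2 ± 2.41 CPM after TRULI withdrawal and 80.4 ± 15.5 CPM in the labelled controls (SD, n = 2 each), a log2 fold change of -1.94 ± 0.42 (adjusted p = 0.0596 by edgeR). Hey2 differed by -1.31 ± 0.34 (adjusted p = 0.08 by edgeR) and Id1 by 1.44 ± 0.45 (adjusted p = 0.11 by edgeR) on the log2 scale. Hes5 had 1 count after TRULI withdrawal and 40 in the labelled controls, a ratio of 50.0 (exact 95% interval 8.47 to 2024, counting error only). Leaving out any single library of this comparison left 1 in its group. The log2 fold changes then ran from -2.13 to -1.71 for Id3, from -1.60 to -1.06 for Hey2 and from 0.96 to 2.17 for Id1. The labelled controls were the TRULI-named pair, which differed from TRULI withdrawal also in Ccn2, Mki67, Lfng and mt-Rnr2 as given above, and the part of these in the result was not tested.

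By table name, 0 of the 9 members tested were called after withdrawal, as were 0% of 10845 genes by edgeR, with 0 members and 516 genes at an unadjusted p under 0.05 and 0 members and 50 genes called by DESeq2. The log2 fold changes of the 9 members lay between -0.73 for Hes6 and 0.29 for Id3, with a median of -0.011 against 0.0054 over all genes. Hes1 averaged 96.9 ± 20.4 CPM after TRULI withdrawal and 97.0 ± 21.1 CPM in the named controls, and Id1 averaged 848 ± 197 and 798 ± 21.3 CPM (SD, n = 2 each). Hey2 alone did not overlap, at 132 ± 34.4 against 174 ± 5.98 CPM (SD, n = 2 each), where 28.8% of all genes did not. Hes5, with 1 count in one group and 0 in the other, was not tested. Hair-cell markers summed to 1679 and 557 CPM after TRULI withdrawal and to 428 and 447 CPM in the named controls, without overlap. Of the 11 hair-cell markers tested, 8 did not overlap, beside 28.8% of all genes. The supporting-cell and glial sums overlapped. The part of these markers in the members' levels was not tested. Standard errors were 0.35 to 1.12 on the log2 scale for the 9 members tested. Changes beyond 2-fold could thus be missed with 2 libraries a group. The 11 hair-cell markers tested had a median log2 fold change of 3.02, and 0 of them were called. A smaller TRULI effect after withdrawal than at 5 days was not shown for any member either way: the difference between the 2 effects was called for 0 of 10 members and 0 of 11861 genes by edgeR in both groupings. Unadjusted p fell under 0.05 for Id2 by label and for Hes1 and Id2 by name, over 810 and 1119 genes in all, and DESeq2 called 44 and 77 genes and no member. For Hes1 that difference was 1.09 ± 0.47 on the log2 scale by name (SE; adjusted p = 0.501 by edgeR) and for Id2 it was 1.09 ± 0.40 (adjusted p = 0.442 by edgeR).

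The third comparison set TRULI withdrawal against the 5-day controls, the only groups with replicates that label and name agree on throughout. Treatment, time in culture and the mt-Rnr2 share change together in it and cannot be told apart, and its controls are those of the first comparison. Of the 10 members, 4 were called, 3 lower and 1 higher, where 20.5% of 11100 genes were called, 9.03% lower and 11.4% higher. Hes5 was 163-fold higher in the controls by pooled counts (148 against 1, exact 95% interval 28.8 to 6481, counting error only; adjusted p = 0.0067 by edgeR). This ratio rests on 1 count and would be 54.3 against 3 counts, and the fitted log2 fold change ran from -8.95 to -6.07 on leaving out single libraries. Hey2 fell from 305 ± 77.6 CPM (SD, n = 3) to 132 ± 34.4 CPM (SD, n = 2), a log2 fold change of -1.22 ± 0.32 (adjusted p = 0.0303 by edgeR). Id3 fell from 53.9 ± 7.91 to 21.2 ± 2.41 CPM, a log2 fold change of -1.35 ± 0.36 (adjusted p = 0.0298 by edgeR). Id1 rose from 188 ± 115 to 848 ± 197 CPM, a log2 fold change of 2.17 ± 0.48 (adjusted p = 0.017 by edgeR). Thus 2 Id genes moved in opposite directions while Id2 and Id4 had log2 fold changes of 0.05 and -0.10, with adjusted p of 0.924 and 0.841 by edgeR. The same 4 members were the only ones whose groups did not overlap, against 53.1% of all genes. Hey1 differed by 0.72 ± 0.32 (adjusted p = 0.133 by edgeR) and Hes1 by -0.40 ± 0.30 (adjusted p = 0.355 by edgeR), and Heyl and Hes6, at -0.63 and -0.95, did not pass either.

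These 4 calls did not rest equally on the libraries. Without control 2, 284 genes were called and only Hes5 of the members, with adjusted p = 0.0771 for Id1, 0.0813 for Hey2 and 0.141 for Id3 by edgeR. Without control 1 or control 3, 773 and 851 genes were called and Hes5 and Id1 were the members among them, with Hey2 at 0.0726 and 0.0991 and Id3 at 0.0916 and 0.0657. Without TRULI withdrawal replicate 1, Hey2 missed the threshold (adjusted p = 0.0732 by edgeR) and Hey1 passed it (log2 fold change 1.07, adjusted p = 0.0338). Without replicate 2 the 4 calls stood. Hair-cell markers summed to 1679 and 557 CPM in the 2 libraries of TRULI withdrawal, and Otof, a synaptic gene of hair cells, lay at 532 and 61.6 CPM in them. Other lists moved with the 4 calls and did not overlap: the supporting-cell markers summed to 19366 to 22905 CPM in the controls and 12981 to 13239 CPM after TRULI withdrawal, and the glial markers to 1062 to 1400 and 691 to 853 CPM. Of the 15 supporting-cell markers tested 5 were called lower, Lfng, Otoa, Slc1a3, Otog and Sox2, a share of 33.3%. The part of these in the members' levels was not tested.

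**Figure D4:**
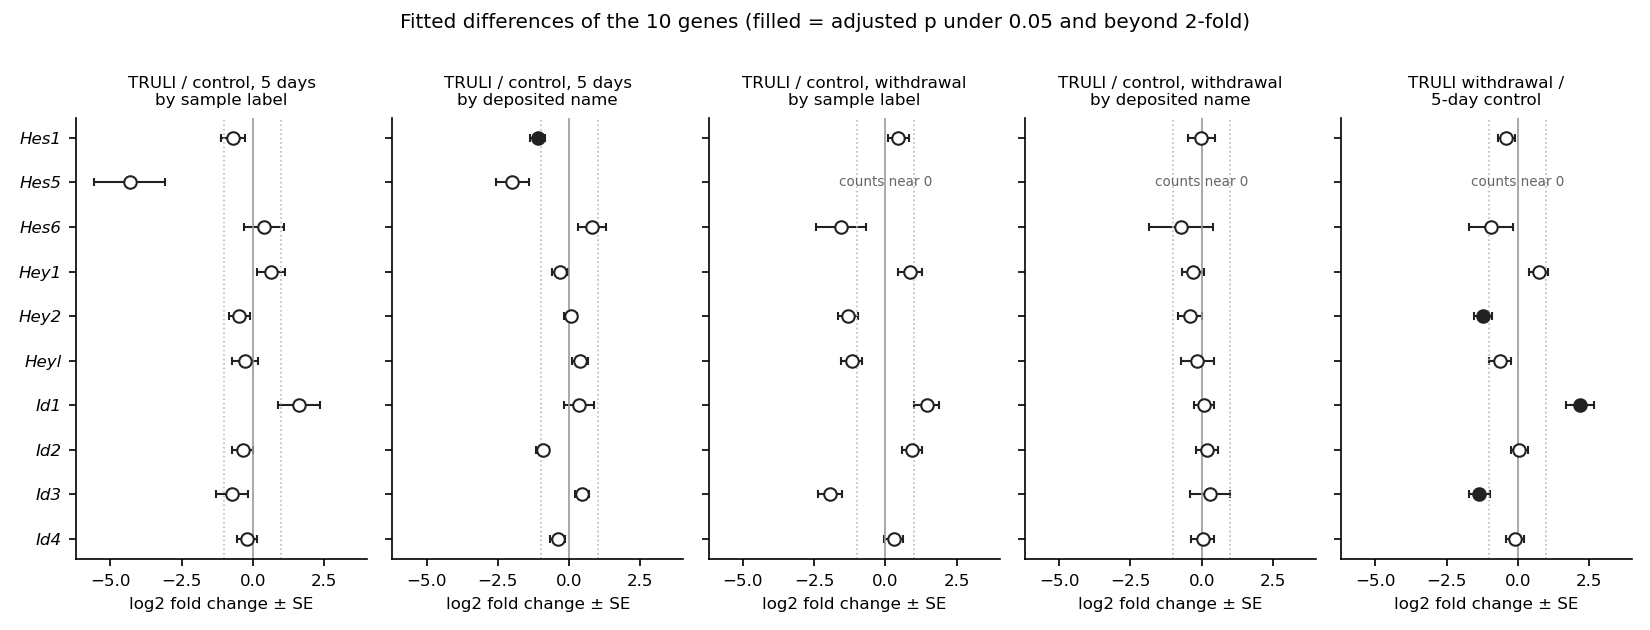
Log2 fold change (x axis) with its standard error (bars) for the 10 members in the 5 comparisons between groups, from edgeR; filled points are past both thresholds, dotted lines mark 2-fold, and Hes5 is not drawn where its counts were near 0. Filled points are Hes1 at -1.11 at 5 days by table name, and Hey2 at -1.22, Id1 at 2.17 and Id3 at -1.35 between TRULI withdrawal and the 5-day controls.

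Around the members, the Notch pathway list held 30 genes, of which 25 were tested in each comparison. At 5 days, 0 of 25 were called in either grouping. Levels of the receptor Notch1 stayed between 87.3 and 240 CPM and of the ligand Jag1 between 72.7 and 134 CPM over all 10 libraries, while the ligands Dll3 and Dll4 were at or near 0. After withdrawal by sample label, 1 was called higher, Rbpj (log2 fold change 2.30 ± 0.40, adjusted p = 0.0417 by edgeR), and 1 lower, Lfng, a glycosyltransferase that modifies Notch receptors (log2 fold change -2.34 ± 0.43, adjusted p = 0.0445 by edgeR). By table name, 0 were called. Between TRULI withdrawal and the 5-day controls, 3 of 25 rose and 3 fell, a share of 24% beside 20.5% of all genes. Rbpj, the DNA-binding partner of the cleaved receptor, rose, with 94.5 to 141 CPM in the controls and 641 to 947 CPM after TRULI withdrawal (adjusted p = 0.0034 by edgeR). The receptor gene Notch3 rose too, with 34.9 to 70.0 CPM and 173 to 317 CPM (adjusted p = 0.0089 by edgeR), as did Numbl. Lfng fell, with 603 to 653 CPM in the controls and 78.5 to 120 CPM after TRULI withdrawal (adjusted p = 0.0034 by edgeR), and Numb, which restrains Notch, and Maml2, a co-activator, fell too. Rbpj and Notch3 in the DMSO-named pair, at 512 to 882 and 209 to 396 CPM, lay with TRULI withdrawal.

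The BMP pathway list held 30 genes, of which 16 to 17 were tested in the comparisons between groups. At 5 days by label 0 were called. By name 1 of 17 was called, Bambi, a decoy receptor of the pathway, which fell from 42.9 to 17.6 CPM (log2 fold change -1.27 ± 0.29, adjusted p = 0.0387 by edgeR). After withdrawal by label Smad4, the shared partner of the receptor-activated Smad proteins, was higher (log2 fold change 1.77 ± 0.31, adjusted p = 0.0417 by edgeR), and by name 0 were called. Between TRULI withdrawal and the 5-day controls 2 of 17 rose and 0 fell, a share of 11.8% beside 20.5% of all genes. Smad4 rose by a log2 fold change of 1.43 ± 0.32 (adjusted p = 0.0172 by edgeR) and Smad7, an inhibitor that BMP signalling induces, by 2.36 ± 0.54 (adjusted p = 0.0186 by edgeR), with 15.9 to 26.9 CPM in the controls and 44.7 to 184 CPM after TRULI withdrawal. In the DMSO-named pair Smad7 lay at 80.8 to 92.3 CPM and Smad4 at 693 to 1075 CPM, above the 5-day controls as in TRULI withdrawal. The ligand Bmp6 ranged from 172 to 303 CPM and the receptor Bmpr1a from 176 to 445 CPM over the 10 libraries, with no call for either.

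**Figure D5:**
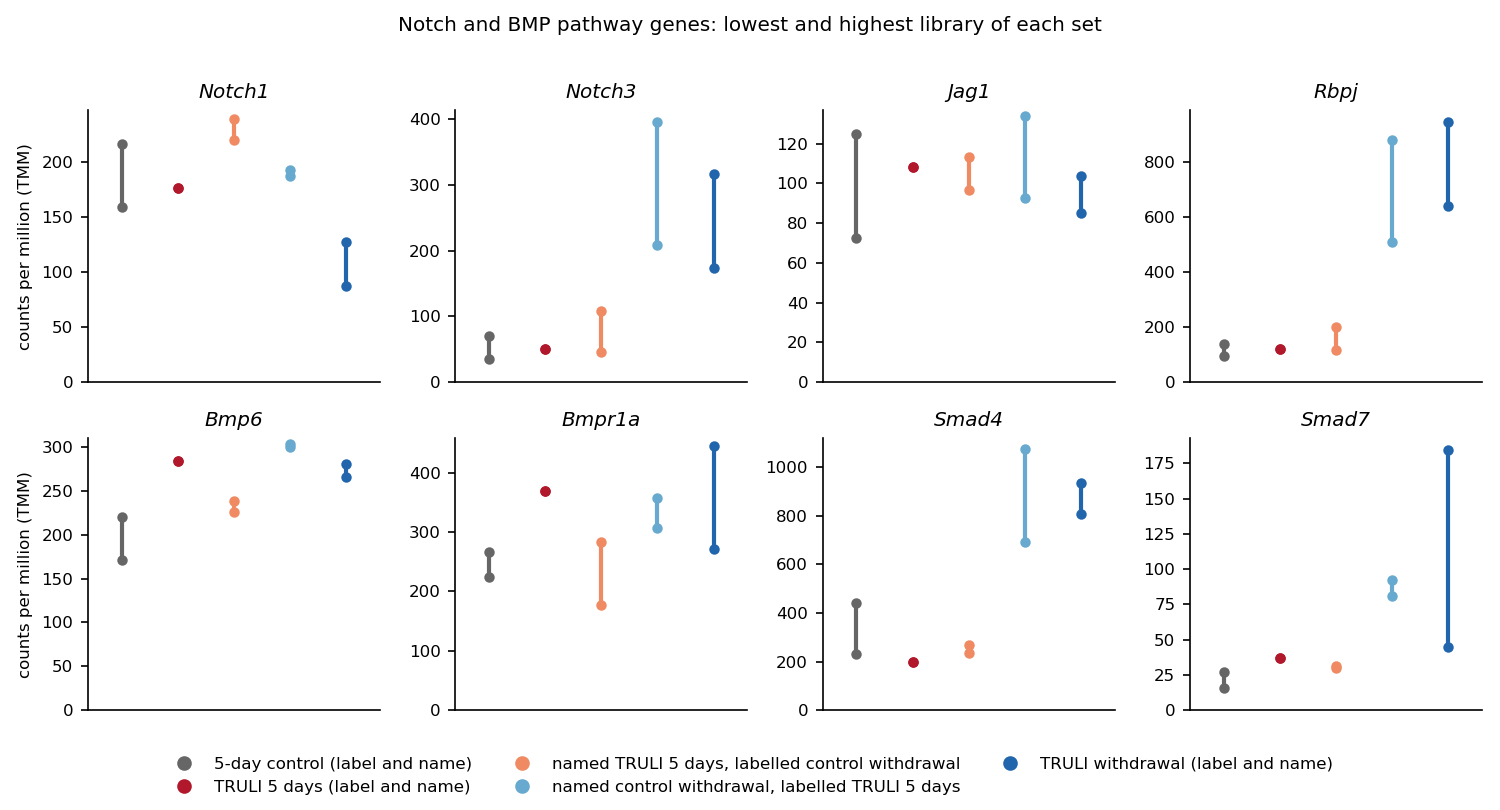
Lowest and highest library (ends of each line, y axis in TMM-scaled CPM starting at 0) of each of the 5 sets for 4 genes of the Notch and 4 of the BMP pathway, chosen after their values were seen to show a ligand, receptors and downstream partners. Rbpj, Notch3 and Smad4 were higher in the DMSO-named pair and TRULI withdrawal than in the other 6 libraries, with Rbpj at 512 CPM or more against at most 201 CPM.

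The partners and targets of the members were measured in the same libraries. All 13 genes of the list of E proteins and co-repressors were tested, and 0 were called in each comparison except TRULI withdrawal against the 5-day controls, where Tle1, a Groucho co-repressor recruited by Hes proteins, and Hdac1, a histone deacetylase, fell (log2 fold changes -1.31 ± 0.35 and -1.84 ± 0.50, adjusted p = 0.0315 and 0.033 by edgeR), 2 of 13 or 15.4% beside 20.5% of all genes. In the DMSO-named pair Tle1 lay at 14.5 to 21.6 CPM and Hdac1 at 6.41 to 23.4 CPM, below the 5-day controls as in TRULI withdrawal. The E proteins Tcf4, Tcf12 and Tcf3, which Id proteins bind, lay at 526 to 930, 82.9 to 151 and 10.8 to 24.8 CPM and none passed the test. Of 6 other repressors of the Hes kind, Bhlhe40 and Bhlhe41 were expressed above 2 CPM, and Bhlhe41 rose between the 5-day controls and TRULI withdrawal (log2 fold change 1.87 ± 0.38, adjusted p = 0.0133 by edgeR), while Helt, Hes2 and Hes3 were at 0 in all 10 libraries. Bhlhe41 lay at 109 to 227 CPM in the DMSO-named pair too, against 38.9 to 44.5 CPM in the 5-day controls. Of 14 proneural and myogenic genes of the same class, Atoh1 lay at 2.14 to 30.6 CPM and was not called in any comparison. Myod1, which makes muscle cells, was the other one with counts above a few: it was called higher in TRULI withdrawal, at 17.3 and 57.3 CPM, than in the 5-day controls, at 0.463 CPM or less (adjusted p = 0.004 by edgeR), and also by sample label than in the TRULI-named pair, where it had 0 counts. All other members of that list stayed under 2 CPM.

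Over the 10 libraries, the genes whose log2 CPM was most like that of the leading member of each family were found among 8674 genes of at least 10 CPM on average, as a description with libraries, depth and mt-Rnr2 share in common. For Hes1 these were Zfp174, Scrg1 and Epcam, with Pearson's r of 0.932, 0.929 and 0.922. Within the 6 libraries named for 5 days r was 0.934 to 0.946. Those 6 are among the 10 libraries used to pick the genes, so r within them is no separate test, here and below. Epcam, an adhesion protein of epithelial cells, was also called lower at 5 days by table name, with 5223 to 6658 CPM in the controls and 1637 to 2932 CPM in the TRULI libraries (adjusted p = 0.0173 by edgeR). For Hey1 they were Rab3a, Nedd4 and Ctsb, with r of 0.966, 0.961 and 0.961, and of 0.932, 0.907 and 0.861 within the 6 libraries. For Id1 they were Tmem198b, Arpc4 and Tmem189, with r of 0.980, 0.979 and 0.978, and of 0.940 to 0.986 within the 6 libraries.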

How the data were processed

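Utricular supporting cells sorted from Lfng-EGFP mice were profiled in 10 RNA-sequencing libraries, 1 table each. The methods call the replicates biological. The authors mapped reads to GRCm38/mm10 with STAR, and the deposited tables give expected counts, which are estimated counts and not whole, and effective lengths per gene. The labels and the methods name different library kits. Counts were rounded, protein-coding genes of GENCODE M21 were kept (48349 of 48709 identifiers matched), and edgeR 4.0.16 was run in R 4.3.3: filterByExpr, TMM, quasi-likelihood test, Benjamini-Hochberg adjustment over all genes tested, within the groups compared. A call needed an adjusted p under 0.05 and a fold change beyond 2. FPKM was computed from counts and effective lengths over protein-coding genes. Likeness used log2(CPM + 0.5). Condition was taken from the sample label and, separately, from the table name, since 4 libraries differ. Alternatives were DESeq2 1.42.0, its size factors, no filter, a replicate block, all libraries in one fit and leaving out each library. The steps were run on simulated counts grouped by sample label, with less spread between libraries than most fits here had. That run therefore does not measure how often the calls here are wrong. No 2 libraries agreed within sampling noise (lowest chi-square per degree of freedom 12.8). By name at 5 days, deviations from the group means correlated at 0.206 to 0.387 between same-numbered libraries and at -0.274 to -0.011 between others. With 3 libraries a group these values are not independent, so pairing by number was not settled. The main test used no block. The members and gene lists were chosen with earlier results of these data known. Named were the 10 members, the called genes of each pathway list (lowest p first, up to 4), the library checks and the 3 genes most like Hes1, Hey1 and Id1, the family members with the highest mean FPKM; others were named after their values were seen.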

Additional observations from a re-analysis of the deposited data

How the results depend on the processing

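Of 814 values of single members under an alternative, 705 kept direction and side of the threshold, 20 no longer passed it, 32 newly passed it and 57 changed sign, 41 of these on leaving out a library; with 2 or 3 libraries a group, the direction of a small difference was not settled. The causes were not tested. For TRULI against control at 5 days by sample label, the 1 gene called became 273 by DESeq2, 0 with the replicate block and 2 with all 10 libraries in one fit. The libraries that label and name agree on, with only 1 TRULI library, put Hey1 at -0.74, Id1 at -0.87 and Id3 at 0.19, all of opposite sign to the value by label. The table names gave 359 genes and 1 member, with Hey1 at -0.32, Hey2 at 0.049, Heyl at 0.38 and Id3 at 0.47. Leaving out single libraries gave 0 to 2121 genes, 0 to 4 members, Hes6 between -0.19 and 0.72 and Heyl between -0.51 and 0.051.

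By table name at 5 days, the 359 genes and 1 member became 567 and 2 by DESeq2, 586 and 2 with no filter, 696 and 2 with the replicate block and 123 and 0 with all 10 libraries in one fit. The agreed libraries gave 157 genes, with Hey2 at -0.031, Heyl at -0.029 and Id1 at -0.87. Leaving out single libraries gave 64 to 396 genes, 0 to 1 members, Hey2 between -0.095 and 0.27 and Id1 between -0.37 and 0.89.

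After withdrawal by label, the 265 genes and 0 members became 1454 and 3 by DESeq2, 1296 and 4 with no filter, 1830 and 5 with the replicate block (Hes5, Hey2, Heyl and Id3 lower, Id1 higher) and 0 genes both with all 10 libraries in one fit and by table name, where Hes1 was at -0.011, Hey1 at -0.30 and Id3 at 0.29. Leaving out single libraries gave 28 to 3028 genes and 0 to 5 members. By name, the 0 genes became 50 by DESeq2, 198 with no filter and 0 to 26 on leaving out a library, where Hes1 ranged from -0.24 to 0.23, Hey1 from -0.71 to 0.024, Heyl from -0.71 to 0.71, Id1 from -0.19 to 0.30, Id2 from -0.17 to 0.46, Id3 from -0.16 to 0.90 and Id4 from -0.13 to 0.17.

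For TRULI withdrawal against the 5-day controls, the replicate block kept 2 of the 4 members called, Hes5 and Id1, with 897 genes higher and 711 lower in place of 1268 and 1002, and put Id2 at -0.11. All 10 libraries in one fit by label gave 11 genes and 0 members, with the 4 libraries in dispute in its estimate of the spread; by table name, an alternative chosen after seeing the data, it gave 2353 genes and 4 members. Leaving out single libraries gave 284 to 3402 genes, 1 to 4 members, Id2 between -0.27 and 0.34 and Id4 between -0.34 and 0.074. For the difference between the TRULI effects, the 0 genes by label became 44 by DESeq2, 11 with no filter and 1 with the replicate block, where Hes5 was at 0.10 and Id1 at 0.044, and 0 to 1 on leaving out a library, with Hes5 between -2.96 and 3.80, Hey1 between -0.22 and 0.70 and Id1 between -0.67 and 0.56. By name they became 77 by DESeq2, 142 with no filter and 0 to 89 on leaving out a library, with Hey1 between -0.44 and 0.36, Heyl between -1.09 and 0.35, Id1 between -0.81 and 0.42 and Id3 between -0.63 and 0.47. At 5 days, only the grouping by name had every same-number correlation above those of the other pairs. By label at 5 days the same-number correlations were -0.186 to 0.063. With 2 libraries a group after withdrawal they were 0.236 by label and 0.183 by name. There the other pairs must take the same value with opposite sign, so these correlations cannot decide whether the numbers pair the libraries. The block changed no other call among the members. Hes5 and Hes6 had the fewest counts, so their relative counting error was the largest of the members.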
